A study of Saccharomyces cerevisiae with 6 samples.

Results

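Aminoacyl-tRNA synthetases load each tRNA with its amino acid, and 34 genes of this machinery were read in budding yeast whose only Hsp90 was either wild-type Hsc82 or the mutant hsc82-W296A. The 34 genes are a fixed list of 20 genes for cytosolic enzymes and 14 for mitochondrial enzymes, not chosen by a threshold on these arrays. Each of the 34 had 1 probe set in the platform annotation, out of 5449 *Saccharomyces cerevisiae* genes measured. Hsp90 is a chaperone that many signalling proteins need to fold. All cultures were of strain JJ816, in which, per the study design, both chromosomal Hsp90 genes (HSC82 and HSP82) are deleted and a plasmid copy of HSC82 takes their place. The 3 cultures called WT Hsc82 carried the wild-type plasmid gene and the 3 called hsc82-W296A the version with tryptophan changed to alanine. They grew overnight in YPD at 30 degrees to an optical density of 0.5, and the RNA of each was hybridised to 1 Affymetrix array. The labels call the cultures biological replicates. A single strain was used, and the plasmid copy number is not given.

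A yeast cell runs a separate protein synthesis in its mitochondria, on mitochondrial tRNAs and for a handful of respiratory chain subunits. Most amino acids therefore have one nuclear gene for a cytosolic synthetase and another for a mitochondrial one, while a few genes make both forms from alternative start sites. The enzymes fall into class I and class II, which have unrelated catalytic folds. Uncharged tRNA is sensed in the cytosol by the kinase Gcn2, which raises translation of the activator Gcn4, and several synthetase genes are among the targets of Gcn4.

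Values below are log2 signals as the authors deposited them, and a change is hsc82-W296A minus WT Hsc82 with the standard error (SE) of a limma fit over the 5498 *S. cerevisiae* probe sets, n = 3 arrays a group. A gene is called where its Benjamini-Hochberg adjusted p is under 0.05. Of all 5449 genes, 67.3% were called, 37.1% higher and 30.3% lower in hsc82-W296A, so a call by itself is common on these arrays. Array medians moved with the genotype: that of *S. cerevisiae* probe sets was 10.94 to 11.04 in WT Hsc82 and 11.07 to 11.13 in hsc82-W296A, and that of probe sets for another species 6.52 to 6.70 and 6.38 to 6.46. Small changes depend on how the arrays are scaled, and the median change of all genes was 0.04 in the deposited values, -0.06 with quantiles made equal and -0.07 with medians made equal. The plasmid-borne HSC82 read 14.24, 14.30 and 14.30 in WT Hsc82 and 14.53, 14.53 and 14.56 in hsc82-W296A, which does not check the substitution. The probe set of HSP82, a gene whose sequence is close to that of HSC82, read 10.05, 10.05 and 9.98 in WT Hsc82 and 10.28, 10.29 and 10.38 in hsc82-W296A (change 0.29, adjusted p = 0.00179). These values are above background although the design gives the gene as deleted, and whether HSC82 transcript reaches those probes was not tested. Markers of MATa cells were above background, a log2 signal of 8.14, on all arrays for 6 of 6 genes, and those of MATalpha cells for 1 of 4. The mean signal of the 4 MATalpha markers was 7.68 to 7.87 in WT Hsc82 and 8.65 to 8.75 in hsc82-W296A. MF(ALPHA)1, STE3 and SAG1 were called higher in hsc82-W296A, by 1.86, 1.15 and 0.62. MF(ALPHA)1 and STE3 were above background on the 3 hsc82-W296A arrays only, and MF(ALPHA)2 was below it on all 6 arrays. Of the MATa markers, 2 were called higher and 2 lower. The part of this marker difference in the synthetase values was not tested.

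The cytosolic synthetase genes were mostly lower in hsc82-W296A, and the mitochondrial ones were mixed with more higher than lower. Of the 20 cytosolic genes, 14 fell, 1 rose and 5 did not pass, with a median change of -0.25. Of the 14 mitochondrial genes, 7 rose, 3 fell and 4 did not pass, with a median change of 0.23. Among all genes 30.3% were called lower and 37.1% higher, with a median of 0.04. None of the 34 genes changed 2-fold or more, which 9.76% of all genes did. The separation of the groups gave a like count: the 3 hsc82-W296A arrays lay below the 3 WT Hsc82 arrays for 15 of the 20 cytosolic genes and above them for 1, and for the mitochondrial genes they lay below for 3 and above for 6. Over all genes the groups were separate for 73.6%, with hsc82-W296A below for 34.1% and above for 39.5%. All 34 genes read above background on each array.

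**Figure D1:**
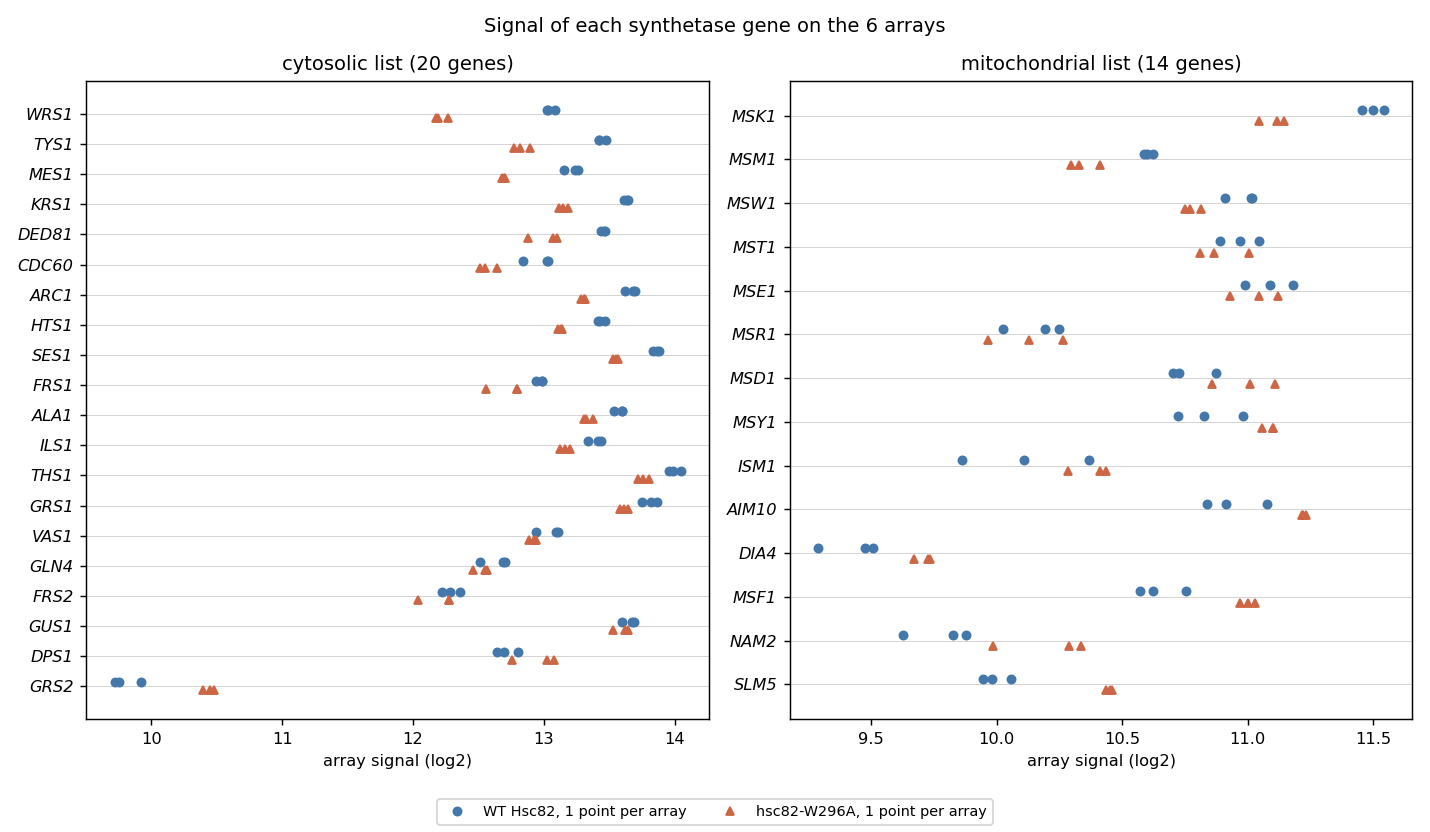
Log2 signal of each gene on the 6 arrays, cytosolic list on the left and mitochondrial list on the right, ordered by change, with blue circles for the 3 WT Hsc82 arrays and orange triangles for the 3 hsc82-W296A arrays. In the cytosolic list 15 of 20 genes have every triangle left of every circle, while in the mitochondrial list this holds for 3 of 14 and the reverse for 6; signals of different genes come from different probes and are not compared.

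The steepest fall was that of WRS1, the cytosolic tryptophanyl-tRNA synthetase. It read 13.03, 13.02 and 13.09 in WT Hsc82 and 12.27, 12.19 and 12.18 in hsc82-W296A. The 2 groups lay far apart compared with the spread inside either one. The change was -0.84 ± 0.046 (SE, adjusted p = 1.49e-05), which leaves 56.1% of the wild-type signal, and 1.84% of all genes had a lower change. TYS1, the tyrosyl-tRNA synthetase and structurally a close relative of the tryptophan enzyme, read 13.47, 13.42 and 13.42 in WT Hsc82 and 12.90, 12.82 and 12.77 in hsc82-W296A. Again no array of one group reached the other. Its change was -0.61 ± 0.049 (adjusted p = 6.13e-05), or 65.4% of the wild-type signal. In the complete set of 34 these were the lowest and second lowest changes.

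MES1, ARC1 and GUS1 belong to one cytosolic assembly, in which Arc1, a tRNA-binding cofactor without synthetase activity, holds the methionyl enzyme Mes1 and the glutamyl enzyme Gus1. MES1 read 13.16, 13.26 and 13.24 in WT Hsc82 and 12.70, 12.71 and 12.68 in the mutant arrays, with a change of -0.52 ± 0.045 (adjusted p = 8.26e-05). ARC1 read 13.62, 13.70 and 13.68 against 13.31, 13.28 and 13.31, a change of -0.36 ± 0.042 (adjusted p = 0.000316). Both were lower on every hsc82-W296A array. GUS1 behaved otherwise, with 13.60, 13.69 and 13.67 in WT Hsc82 and 13.53, 13.64 and 13.62 in hsc82-W296A. Its groups overlapped, and the change of -0.06 ± 0.052 did not pass (adjusted p = 0.358). The change of MES1 was lower than that of GUS1 by a difference of -0.47 ± 0.036, and that of GUS1 exceeded that of ARC1 by 0.31 ± 0.044. In both comparisons the per-array differences of the 2 groups did not overlap, and no test is given because these pairs were picked after their values were seen. GUS1 passed as a fall once arrays were scaled by quantiles (-0.15), by their medians (-0.17) or by background and middle (-0.35), and with a trend on coding length removed (-0.21).

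Other class I enzymes fell less or did not pass. CDC60, the leucyl-tRNA synthetase, fell by 0.40 ± 0.068 and ILS1, the isoleucyl enzyme, by 0.24 ± 0.047. VAS1, for valine, had a change of -0.13 ± 0.056 that did not pass (adjusted p = 0.0805), although its groups were separate. It passed with the replicate number as a block (adjusted p = 0.0470) and without WT Hsc82 replicate 1 (-0.18, adjusted p = 0.0134). GLN4, the glutaminyl enzyme, stood at -0.11 ± 0.066 with overlapping groups (adjusted p = 0.184), and at -0.17 without WT Hsc82 replicate 1 (adjusted p = 0.0309). VAS1 passed as a fall under 8 of the 18 other settings and GLN4 under 6. Among these were medians centred and background and middle matched. In all, 5 of 8 cytosolic class I genes fell and 0 rose, with a median of -0.32. Of the class II genes, 8 of 11 fell and 1 rose, with a median of -0.24. Among all genes 30.3% were called lower and 37.1% higher, and the split by class was added after the data were seen.

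Class II enzymes included both clear falls and the 2 exceptions in direction. KRS1, the lysyl-tRNA synthetase, read 13.61, 13.64 and 13.63 in WT Hsc82 and 13.15, 13.12 and 13.18 in hsc82-W296A. The arrays of each group lay within a narrow band, and the change was -0.48 ± 0.041 (adjusted p = 7.98e-05). DED81, the asparaginyl enzyme, read 13.44, 13.47 and 13.46 against 12.88, 13.10 and 13.07, a change of -0.44 ± 0.065 (adjusted p = 0.00100). SES1 for serine and HTS1 for histidine each fell by 0.31, ALA1 for alanine by 0.24, THS1 for threonine by 0.23 and GRS1 for glycine by 0.19. These 5 genes had no overlap between the groups. The 2 subunits of cytosolic phenylalanyl-tRNA synthetase gave changes of -0.26 ± 0.073 for FRS1 (adjusted p = 0.0187) and -0.09 ± 0.078 for FRS2 (adjusted p = 0.325). FRS1 no longer passed without WT Hsc82 replicate 2 (adjusted p = 0.0589). FRS2 passed as a fall under 2 of the 18 other settings, with medians centred and with background and middle matched. The change of FRS1 was below that of FRS2 by a difference of -0.16 ± 0.029, with no overlap of the per-array differences.

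GRS2 was the one cytosolic gene that rose. It is a paralog of GRS1, the main glycyl-tRNA synthetase gene, and is not needed for growth under standard conditions. It read 9.72, 9.75 and 9.92 in WT Hsc82 and 10.39, 10.48 and 10.45 in hsc82-W296A. Each hsc82-W296A array was above each WT Hsc82 array. The rise was 0.64 ± 0.064 (adjusted p = 0.000158), or 156.3% of the wild-type signal, and it stayed past the threshold under all 18 other settings, at 0.40 to 0.71. GRS1 moved the other way, from 13.75, 13.82 and 13.86 to 13.58, 13.62 and 13.65. The change of GRS1 minus that of GRS2 was -0.84 ± 0.041, with no overlap of the arrays. Whether GRS1 transcript reaches the GRS2 probes was not tested.

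DPS1, the cytosolic aspartyl-tRNA synthetase, was the other gene with a positive change. It read 12.64, 12.70 and 12.80 in WT Hsc82 and 12.76, 13.08 and 13.03 in hsc82-W296A, so the groups overlapped through hsc82-W296A replicate 1. The change of 0.24 ± 0.094 did not pass (adjusted p = 0.0564). It passed with the replicate block (adjusted p = 0.0146) and, at 0.34, without hsc82-W296A replicate 1 (adjusted p = 0.00439), whereas it was 0.0019 with background and middle of the arrays matched (adjusted p = 0.983). The same array was the lowest of its group for many of the listed genes, among them DED81, FRS1, FRS2 and MSD1. Its median over *S. cerevisiae* probe sets was also the lowest of the group, at 11.07 against 11.12 and 11.13. So was its mean of the cytosolic list, at 12.84 against 12.91 and 12.90. FRS1 read 12.56 there against 12.80 and 12.80 in the other hsc82-W296A arrays, and FRS2 12.04 against 12.27 and 12.27.

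**Figure D2:**
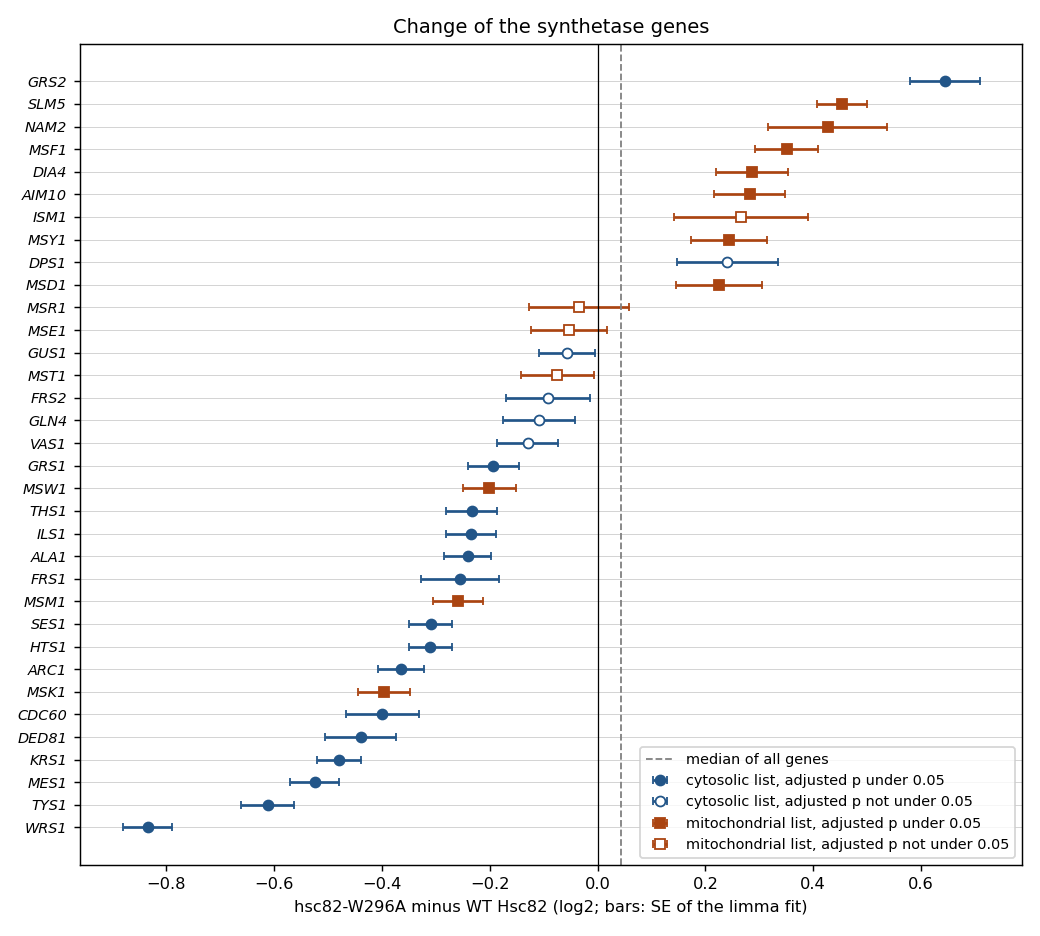
Change of each of the 34 genes in hsc82-W296A minus WT Hsc82 (log2, x axis) with the SE of the limma fit as bars, circles for the cytosolic list, squares for the mitochondrial list, and filled symbols for adjusted p under 0.05. The changes run from -0.84 for WRS1 to 0.64 for GRS2, and the dashed line marks the median of all genes, 0.04.

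The cytosolic-list genes ALA1, GRS1, HTS1 and VAS1 also encode the mitochondrial form of their enzyme, and a probe set reads both forms together. All 4 had a negative change, between -0.31 and -0.13, with separate groups, and 3 of the 4 passed. Over all genes 30.3% were called lower. The groups were separate for 73.6% of all genes, with hsc82-W296A below for 34.1%. The median of these 4 genes, -0.22, was close to the -0.28 of the other 16 cytosolic genes. Arginyl and prolyl enzymes of the cytosol, YDR341C and YHR020W, were not in the list of 34. Both fell by 0.23 (adjusted p = 0.00202 and 0.0129). The cysteinyl enzyme gene YNL247W had no probe set assigned and was not analysed here.

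Among the mitochondrial enzymes, 7 genes rose. SLM5, the mitochondrial asparaginyl-tRNA synthetase, had the largest rise of this list. It read 9.95, 9.98 and 10.06 in WT Hsc82 and 10.46, 10.43 and 10.45 in the mutant arrays, a rise of 0.45 ± 0.046 (adjusted p = 0.000169). Its groups were separate, and it stayed past the threshold under all 18 other settings, at 0.22 to 0.49. MSF1, the single-chain mitochondrial phenylalanyl enzyme, read 10.57, 10.62 and 10.76 against values from 10.97 to 11.03, a rise of 0.35 ± 0.058 (adjusted p = 0.00167) that likewise held under all 18.

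Other rises rested more on the scaling. NAM2, the leucyl-tRNA synthetase that also takes part in splicing of mitochondrial introns, read 9.63, 9.88 and 9.82 in WT Hsc82 and 9.99, 10.33 and 10.29 in hsc82-W296A. No arrays overlapped, and the rise was 0.43 ± 0.110 (adjusted p = 0.0123), but it was 0.14 after quantile normalization and 0.24 with a trend on coding length removed, neither past the threshold. DIA4, a seryl-tRNA synthetase, rose by 0.29 ± 0.067 and stood at -0.05 after quantile normalization and 0.03 with cyclic loess, neither past the threshold. AIM10, which resembles prolyl-tRNA synthetases, rose by 0.28 ± 0.067, and by 0.17 without passing when background and middle were matched (adjusted p = 0.0513) or the length trend was taken out (0.0590). MSY1 for tyrosine rose by 0.24 ± 0.070 (adjusted p = 0.0190), a call that ended without WT Hsc82 replicate 2 (adjusted p = 0.0607) or without hsc82-W296A replicate 2 (adjusted p = 0.0589). MSD1 for aspartate rose by 0.23 ± 0.080 (adjusted p = 0.0416) although its groups overlapped. MSY1 and MSD1 did not pass under quantile scaling, median centring, background matching or length correction, at 0.12, 0.13, 0.14 and 0.17 for MSY1 and 0.08, 0.11, 0.12 and 0.09 for MSD1. The MSD1 call also ended without WT Hsc82 replicate 1 (adjusted p = 0.108) or 2 (0.118) and without hsc82-W296A replicate 2 (0.128) or 3 (0.106).

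Of the mitochondrial genes, 3 fell. MSK1, the mitochondrial lysyl-tRNA synthetase, which also serves the import of a cytosolic lysine tRNA into the organelle, read 11.50, 11.46 and 11.54 in WT Hsc82 and 11.14, 11.12 and 11.05 in hsc82-W296A. Each hsc82-W296A array was below each WT Hsc82 array, and the change was -0.40 ± 0.048 (adjusted p = 0.000383). MSM1 for methionine fell by 0.26 ± 0.047 (adjusted p = 0.00249) and MSW1 for tryptophan by 0.20 ± 0.049 (adjusted p = 0.00955), both with separate groups. These 3 kept their direction and call under all 18 other settings. ISM1 for isoleucine stood at 0.27 ± 0.124 (adjusted p = 0.0986), passing with the replicate block (adjusted p = 0.0198) and without WT Hsc82 replicate 3 (0.39, adjusted p = 0.0118). It was 0.14 without WT Hsc82 replicate 1, 0.03 after quantile normalization and 0.06 with the length trend taken out (adjusted p = 0.227, 0.747 and 0.670). MST1 for threonine, MSE1 for glutamate and MSR1 for arginine had changes of -0.07, -0.05 and -0.04 with overlapping groups. By class, 5 of 7 mitochondrial class II genes rose and 1 fell, and 2 of 7 class I genes rose and 2 fell. The shares over all genes were 37.1% higher and 30.3% lower.

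The cytosolic and mitochondrial enzymes were then set side by side. The mean signal of the 20 cytosolic genes minus that of the 14 mitochondrial genes was 2.61, 2.59 and 2.52 in WT Hsc82 and 2.20, 2.21 and 2.24 in hsc82-W296A. The 2 groups did not overlap, and the difference narrowed by a change of -0.35, with SDs of 0.049 and 0.018. This is given without a test, since the members were chosen with results of these arrays known. Most of the shift lay in the cytosolic mean, which went from 13.13 ± 0.046 with the wild-type plasmid to 12.88 ± 0.040 with the mutant one (SD, n = 3 each), while the mitochondrial mean went from 10.56 ± 0.091 to 10.67 ± 0.031, a change of 0.11. The mean of all genes moved further, from 10.90 ± 0.059 to 11.07 ± 0.029, a change of 0.16, so the mitochondrial list lay above all genes by its median and below them by its mean.

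For 15 pairs of genes that serve the same amino acid, the change of the cytosolic gene was below that of the mitochondrial gene in 14, and in 12 of the 13 pairs with both genes among the 34. MSF1 was set against both FRS1 and FRS2. The per-array differences of the groups did not overlap in 10 pairs, the cytosolic change being lower in each of these 10. Taken singly, 73.6% of all genes had separate groups, and no such share was computed for pairs of other genes. DED81 and SLM5, for asparagine, stood furthest apart, with a difference of -0.89 ± 0.081. TYS1 and MSY1, for tyrosine, differed by -0.86 ± 0.094, and CDC60 and NAM2, for leucine, by -0.83 ± 0.085. WRS1 and MSW1, for tryptophan, both fell, yet the cytosolic change was lower by a difference of -0.63 ± 0.034. With 3 arrays a group each such pair reached at best p = 0.1 in the exact two-sided permutation test, and adjusted p = 0.15 over the 15 pairs compared. So none could pass a threshold of 0.05 in this test.

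Some amino acids showed no such gap. For aspartate, DPS1 and MSD1 had changes of 0.24 and 0.23, a difference of 0.02 ± 0.036 (exact permutation test, p = 0.6). For glutamate, GUS1 and MSE1 both stood near 0, with a difference of -0.0033 ± 0.043 (exact p = 0.9). For lysine, KRS1 and MSK1 both fell, with a difference of -0.08 ± 0.053 (exact p = 0.3). In these 3 pairs the per-array differences of the groups overlapped. The threonine pair THS1 and MST1 and the arginine pair YDR341C and MSR1 overlapped too, at -0.16 ± 0.090 and -0.19 ± 0.117.

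**Figure D3:**
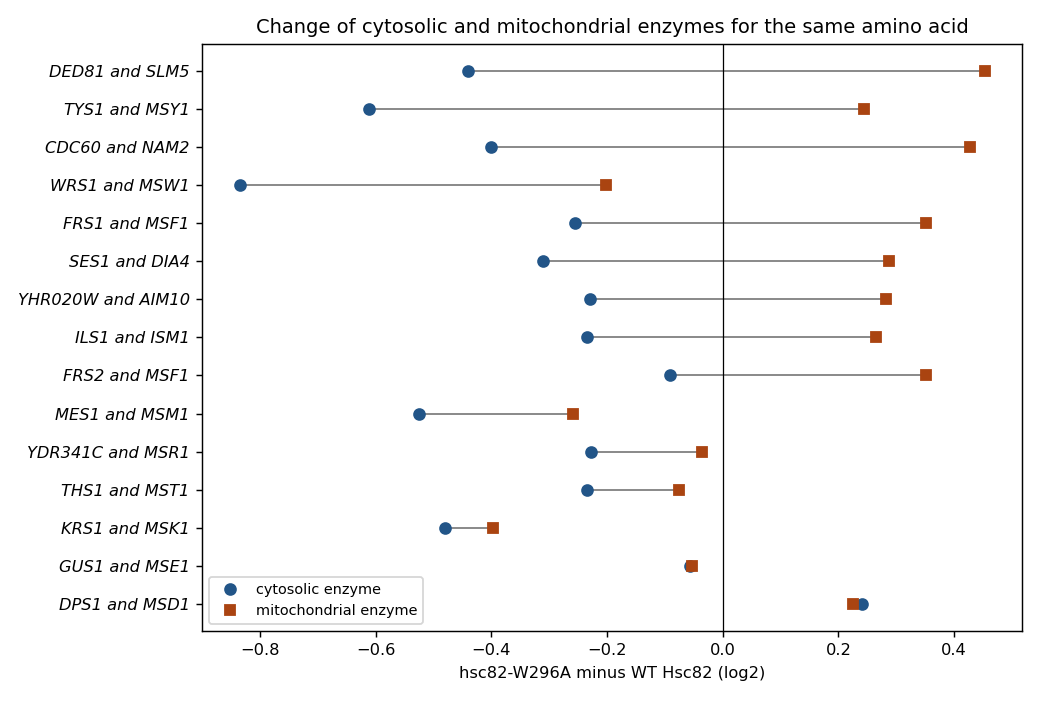
Change in hsc82-W296A minus WT Hsc82 (log2, x axis) of the cytosolic enzyme (circle) and the mitochondrial enzyme (square) for the same amino acid, 15 pairs, with MSF1 shown against both FRS1 and FRS2. The circle lies left of the square in 14 pairs, with the widest gap for DED81 and SLM5 and almost none for GUS1 and MSE1 or DPS1 and MSD1.

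Scaling the arrays in other ways kept the cytosolic falls and reduced the mitochondrial rises. Of the 20 cytosolic genes, 17 were lower with quantile scaling. With medians centred, or with background and middle matched, 18 were lower. The shares of all genes were 41.4%, 42.3% and 40.6%, in that order. All genes had a median WT Hsc82 level of 10.99, the cytosolic list 13.42. Matching background and middle also lowered other bright genes. The cytosolic elongation genes TEF2, EFB1, EFT2, YEF3 and HYP2 did not pass as deposited but fell there, at -0.28, -0.42, -0.31, -0.39 and -0.33. The dimmer ANB1, at 0.02, did not. With medians centred EFB1 and YEF3 fell, at -0.20 and -0.17 (adjusted p = 0.0216 and 0.0101), while TEF2, EFT2, HYP2 and ANB1 did not pass. So neither count of 18 by itself sets the list apart from bright genes in general. The mitochondrial counts of 7 higher and 3 lower became 3 and 6 with quantile scaling, 5 and 5 with medians centred, 4 and 4 when background and middle were matched, and 3 and 3 once the coding length trend was taken out. Of all genes 31.0%, 31.2%, 32.0% and 32.5% were called higher there, in that order, and 33.7% lower without the length trend. With the trend on signal level removed by cyclic loess the mitochondrial counts were 6 and 4, and the cytosolic counts were 2 higher and 14 lower. The shares of all genes with cyclic loess were 35.5% higher and 35.4% lower. Coding length and signal level moved with the change across genes in general: over 5449 genes the Spearman correlation of the change was 0.19 with coding length and -0.23 with mean signal. Within the 20 cytosolic genes these values were 0.34 and -0.11 and within the 14 mitochondrial genes 0.08 and -0.51, all as descriptions of probe sets on the same 6 arrays.

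**Figure D4:**
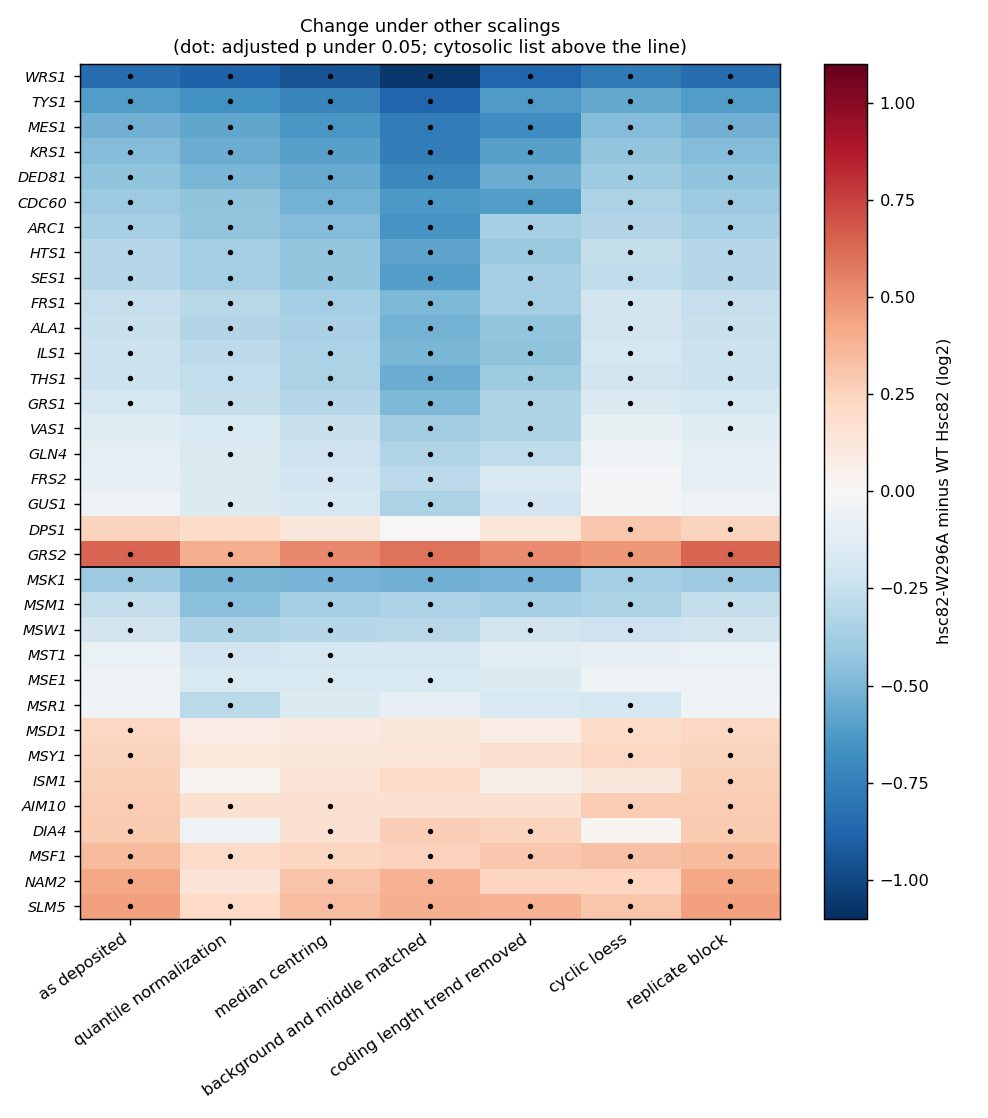
Change of each gene (rows; cytosolic list above the line) as deposited and under 6 other settings (columns), coloured from blue for lower to red for higher in hsc82-W296A, with a dot where adjusted p was under 0.05. The cytosolic rows stay blue except DPS1 and GRS2, whereas the mitochondrial rows with a positive change lose dots after quantile normalization, where 3 of 14 remain higher. Of all genes 31.0% were called higher after quantile normalization.

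Partners of tRNA charging were read from a list of 14 further genes. Over all genes 67.3% were called, 30.3% lower and 37.1% higher. Of the 14 partners, 7 fell, 3 rose and 4 did not pass, with a median change of -0.15. The 3 that rose were GTF1, HER2 and PET112, the subunits of the mitochondrial amidotransferase that turns glutamate on the glutamine tRNA into glutamine, a step used in place of a mitochondrial glutaminyl-tRNA synthetase. GTF1 read 11.17, 11.03 and 11.16 in WT Hsc82 and 11.90, 11.88 and 11.95 in hsc82-W296A, a rise of 0.79 ± 0.053 (adjusted p = 3.1e-05). PET112 read 8.40, 8.85 and 8.94 against 9.47, 9.58 and 9.57, a rise of 0.81 ± 0.137 (adjusted p = 0.00183), from near the background level. HER2 rose by 0.29 ± 0.054 and no longer passed with background and middle matched (0.17, adjusted p = 0.0553). The 3 genes had no overlap between groups.

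Among the partners that fell, UTP8, which acts in nuclear tRNA export and in ribosome assembly, changed by -0.71 ± 0.048, and PTH2, a peptidyl-tRNA hydrolase, by -0.69 ± 0.048. DTD1, which removes D-amino acids from tRNA, changed by -0.62, TPT1, a tRNA splicing enzyme, by -0.47, CCA1, which adds the acceptor end on which amino acids are loaded, by -0.30 and TRZ1, which trims the precursor end, by -0.28. LOS1, the tRNA exportin, changed by -0.17, a call that ended without WT Hsc82 replicate 2 or 3 or without hsc82-W296A replicate 1 or 3 (adjusted p = 0.0801, 0.0620, 0.0535 and 0.0699). FMT1, PTH1, CEX1 and MSN5 did not pass, and FMT1 was below background on all 6 arrays. PTH1 and CEX1 passed without hsc82-W296A replicate 1, at -0.18 and 0.21 (adjusted p = 0.0342 and 0.0286). With array weights they passed at -0.10 and 0.22 (adjusted p = 0.0354 and 0.00253). PTH1 also passed with quantile scaling (-0.34, adjusted p = 0.00251) and with medians centred (-0.26, adjusted p = 0.0108). PTH1 was -0.44 with cyclic loess (adjusted p = 0.00472), and CEX1 took the opposite sign with quantile scaling, length correction and cyclic loess (-0.10, -0.03 and -0.01, none past the threshold). MSN5, at 0.16, passed with the replicate block, array weights or cyclic loess (adjusted p = 0.0189, 0.0278 and 0.0269). It was -0.07 with the length trend taken out (adjusted p = 0.475).

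Genes of the response to uncharged tRNA were mixed. Gcn2 is the sensor, Gcn1 and Gcn20 assist it, Gcn3 is a subunit of eIF2B, the initiation factor on which the response acts, and Gcn4 is the activator at its end. Of these 5 genes, 1 rose, 2 fell and 2 did not pass, with a median of 0.09. Over all genes 67.3% were called, 37.1% higher and 30.3% lower, so 5 genes with mixed calls do not stand out. GCN3 and GCN20 fell by 0.37 and 0.28, GCN2 rose by 0.28 (adjusted p = 0.0317), and GCN1 at 0.26 did not pass, though it did with the replicate block (adjusted p = 0.00339) and, at 0.34, without hsc82-W296A replicate 1 (0.0416). GCN1 turned to -0.05 with the length trend taken out (adjusted p = 0.723), and was 0.14 without WT Hsc82 replicate 1 (0.238). The GCN2 call ended without hsc82-W296A replicate 2 (adjusted p = 0.0842) or 3 (0.101). It also ended with the length trend taken out (0.02, adjusted p = 0.887), with quantile scaling (0.11, 0.147), with medians centred (0.16, 0.0682) and with background and middle matched (0.20, 0.0581). GCN4 transcript stood at 14.16, 14.13 and 14.19 in WT Hsc82 and at 14.25, 14.22 and 14.27 in hsc82-W296A, a change of 0.09 ± 0.041 that did not pass (adjusted p = 0.0892). It passed in opposite directions at 0.13 with quantile scaling (adjusted p = 0.0172) and -0.24 with background and middle matched (adjusted p = 0.0322). Gcn4 is controlled mainly by translation, which these arrays do not read.

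Translation factors of the 2 compartments were read as a last list. Of 7 mitochondrial translation factor genes with a probe set, 5 rose and 0 fell, with a median change of 0.33. The shares over all genes were 37.1% higher and 30.3% lower. MRF1 and AIM23 did not pass, at -0.11 and 0.10. MRF1 was called lower with quantile scaling, medians centred, background and middle matched or array weights, at -0.20, -0.22, -0.23 and -0.11. IFM1, the initiation factor, rose by 0.64, the elongation factor genes MEF2, MEF1 and TUF1 by 0.60, 0.37 and 0.33, and RRF1, a ribosome recycling factor, by 0.22 (adjusted p = 0.0406). The TUF1 change was 0.04 with background and middle matched, and the RRF1 call ended without WT Hsc82 replicate 2 or 3 and without hsc82-W296A replicate 1 or 2 (adjusted p = 0.128, 0.0813, 0.0840 and 0.0839). RRF1 also did not pass with quantile scaling, medians centred, background and middle matched or cyclic loess, at 0.08, 0.11, 0.12 and 0.19 (adjusted p = 0.498, 0.322, 0.259 and 0.125). Of 8 cytosolic elongation factor genes, 1 rose, 1 fell and 6 did not pass, with a median of 0.03. The 2 that passed encode alternative gamma subunits of the same factor, eEF1B: TEF4 fell from 13.87, 13.87 and 13.91 to 13.46, 13.45 and 13.42, while CAM1 rose from 10.90, 11.03 and 11.11 to 11.80, 12.14 and 12.15. Their changes were -0.44 ± 0.040 and 1.02 ± 0.106.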

How the data were processed

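RNA of 6 cultures, 3 per genotype, was measured on Affymetrix arrays from 5 µg of RNA made into biotin-labelled cRNA, per the labels' protocols. The values deposited by the authors lie in a range that only a log2 scale gives. Their normalization, background correction and probe summarization were not stated in what was read here; limma is named among the submitters' processing tools, with no role. The platform annotation listed 7244 of 10928 probe sets with 1 symbol, 1 with more than that, and 3683 not at all. By gene IDs of assembly R64, 5498 probe sets of 5449 genes were *S. cerevisiae*, and 1746 were of another species. The 95th percentile of the means of the latter, 8.14, served as background. Of 47 genes with more than 1 probe set, the brightest was kept.

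limma 3.58.1 (lmFit, eBayes; R 4.3.3) was run over the 5498 probe sets with Benjamini-Hochberg adjustment at 0.05, in a script tested on simulated data. Pairs for the same amino acid were compared with exact two-sided permutation tests over the 6 arrays (Python 3.11.15). The members, lists and alternatives were chosen with earlier results of these data known. Cyclic loess, the split by class and 5 pairs (GRS1 with GRS2, FRS1 with FRS2, and MES1, GUS1 and ARC1 with each other), given without a test, were added after seeing the data. The genes named are the 34 members, the other lists, HSC82 and mating-type markers. Deviations from the group means correlated between same-numbered arrays (0.41, 0.15 and 0.36), in the values and not by any label. Between differently numbered arrays the correlations ran from -0.39 to 0.14, so the arrays numbered 2 did not stand out. The fit and the permutation tests reported ignore the number, and a fit with it as a block was an alternative, printed beside each result whose call it changes. The number of arrays limits the precision. Alternatives were other scalings, other choices of probe sets, the replicate block, other variance models and leaving out each array. Planned checks of promoter motifs and protein identity were not run, and no sequences were used here.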

Additional observations from a re-analysis of the deposited data

How the results depend on the processing

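With 18 other settings for each of the 34 genes, 14 of the 20 cytosolic and 5 of the 14 mitochondrial genes kept their direction and side of the threshold under each of them. Cytosolic genes called higher were 2, in place of 1, with the replicate block, with an intensity trend and robust prior, with array weights and with cyclic loess, and 1 to 2 when each array was left out. The shares of all genes called higher were 40.9%, 37.4%, 45.0% and 35.5%, in that order, and 32.0% to 38.5% with an array left out. Mitochondrial genes called lower were 6 with quantiles equalised and 5 with medians centred, and those called higher were 3 with quantiles equalised, 4 when background and middle were matched, and 3 once the length trend was taken out. In the same order, 41.4% and 42.3% of all genes were called lower, and 31.0%, 32.0% and 32.5% higher. The cytosolic median was -0.36 with medians centred, -0.53 when background and middle were matched, and -0.38 without the length trend. The mitochondrial median was -0.0108 after quantile normalization, the opposite sign, and 0.12, 0.13, 0.0743 and 0.0789 after median centring, background and middle matching, length trend removal and cyclic loess. The gap between the 2 medians was -0.30, -0.66 and -0.28 after quantile normalization, background and middle matching and cyclic loess, and -0.53 to -0.43 when each array was left out. Charging partners called higher were 5 of 14 with array weights, where 45.0% of all genes were called higher. Mitochondrial translation factors called lower were 1 after quantile normalization, median centring, background and middle matching or array weights, and those called higher were 3 with background and middle matched. Of all genes 41.4%, 42.3%, 40.6% and 36.5% were called lower in these settings, and 32.0% higher with background and middle matched. DIA4 turned to -0.0522 after quantile normalization, and MSR1 lay between -0.11 and 0.0421 when each array was left out. The cause of these shifts was not tested. With the replicate block 15 cytosolic genes were lower, against 32.3% of all genes. Among the 34 genes the block changed the calls of DPS1, VAS1 and ISM1 and no other call. Array signal, with no read depth, and 3 arrays a group limit what small changes can show.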
